A study of Mus musculus with 6 samples.

Results

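The genes described here are 32 members of the pathway that carries glucose to pyruvate and lactate: glucose transporters, glycolytic enzymes with their isoforms, the PFKFB enzymes, the E1 subunits and kinases of pyruvate dehydrogenase (PDH), lactate dehydrogenases and lactate transporters. They were chosen by name, and all 32 were found among the 43430 gene IDs of the deposited count table, each under a single Ensembl ID. Of these, 30 passed the filter on low counts and were tested, while Slc2a4 and Aldoc did not pass.

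RNA was sequenced from lung fibroblasts, taken from male C57BL/6J mice of 9 to 11 weeks and sorted for PDGFRA, a receptor carried by most lung fibroblasts. One group of 9 mice was kept in room air and the other group of 9 mice breathed 10% CO2 for 10 days (hypercapnia, excess CO2, without a shortage of oxygen). The labels name no transgene and no other agent in either group. Cells of 3 mice were pooled into each library, which left 3 libraries per group and averaged over the animals inside each pool. The libraries are called M1, M2 and M3 (room air) and M4, M5 and M6 (hypercapnia), after the column names.

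Glycolysis converts glucose to pyruvate in the cytosol with a small yield of ATP. Hexokinase and phosphofructokinase are its main points of control, and phosphofructokinase is activated by fructose-2,6-bisphosphate, which the PFKFB enzymes make and remove. Pyruvate is either reduced to lactate and exported with a proton by monocarboxylate transporters, or oxidised in mitochondria by the PDH complex, which PDH kinases switch off. In lung fibroblasts this pathway is best known for its rise during fibrotic activation, and it is sensitive to acid, which slows phosphofructokinase.

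Total counts ran from 8999780 to 10198336 per library, so that 3 counts corresponded to between 0.281 and 0.353 CPM (counts relative to library size, scaled by TMM factors throughout). The marker of the sort was abundant: Pdgfra stood at 3556 ± 208 CPM in room air against 2966 ± 419 CPM in hypercapnia (SD, n = 3), Col1a1 at 5069 ± 285 and 4933 ± 478 CPM, and the leukocyte marker Ptprc had counts in M1 only, at 0.236 CPM. Pdgfra had a log2 fold change of -0.26 ± 0.11 (SE, edgeR unadjusted p = 0.042, adjusted p = 0.383). Of 6 fibroblast markers 2 were positive, with 0 called by edgeR (2 at an unadjusted p under 0.05) and 1 by DESeq2. Pericyte and smooth muscle markers summed to between 405.9 and 432 CPM in room air and between 348 and 381 CPM in hypercapnia. Of these, 2 of 7 tested were positive and 0 passed by either tool. Epcam, of epithelium, ran from 0 to 2.24 CPM. The list of airway and general epithelial markers nevertheless summed to between 300.1 and 512 CPM in room air and between 132 and 318 CPM in hypercapnia, with 1 of 7 tested genes positive, a median log2 fold change of -0.70 and 0 past the test by edgeR or DESeq2 (2 at an unadjusted edgeR p under 0.05). Alveolar type 2 markers summed to between 120.2 and 279 CPM in room air and between 196 and 359 CPM in hypercapnia, with 6 of 7 positive, a median of 0.40 and 0 past the test by either tool (1 at an unadjusted p under 0.05). The part of epithelial RNA in the members' values was not tested. All 18 endothelial markers were detected and all 18 had a positive log2 fold change, with 0 past the test by edgeR (12 at an unadjusted p under 0.05) and 2 by DESeq2. Pecam1 stood at 168 ± 100.4 and 308 ± 81.6 CPM. The summed endothelial markers ran from 863 to 3184 CPM in room air and from 3127 to 5118 CPM in hypercapnia. Heart and skeletal muscle markers summed to between 1.68 and 4.95 CPM, with Ckm at 0 in every library, and leukocyte markers to between 11.9 and 61.9 CPM, with Cd3e and Adgre1 at 0. In such bulk samples, fewer cells of a type and less RNA per cell cannot be told apart.

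In hypercapnia, 1 of the 30 tested members changed: Pfkp, which encodes the platelet-type subunit of phosphofructokinase, fell. The other 29 did not pass edgeR's quasi-likelihood test at an adjusted p of 0.05. Over all 13005 tested genes, 159 were called (1.22%), 68 of them higher (0.523%) and 91 lower (0.7%), while scaling by library size alone gave 97 higher and 75 lower. With 1 of 30 members called, no excess over that background can be read from the count. The members' log2 fold changes were balanced, 15 positive and 15 negative, with a median of 0.01 beside 0.01 over all genes tested. With library sizes alone 9 of the 30 were negative. Their median size regardless of sign was 0.13, against 0.18 over all genes tested.

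**Figure D1:**
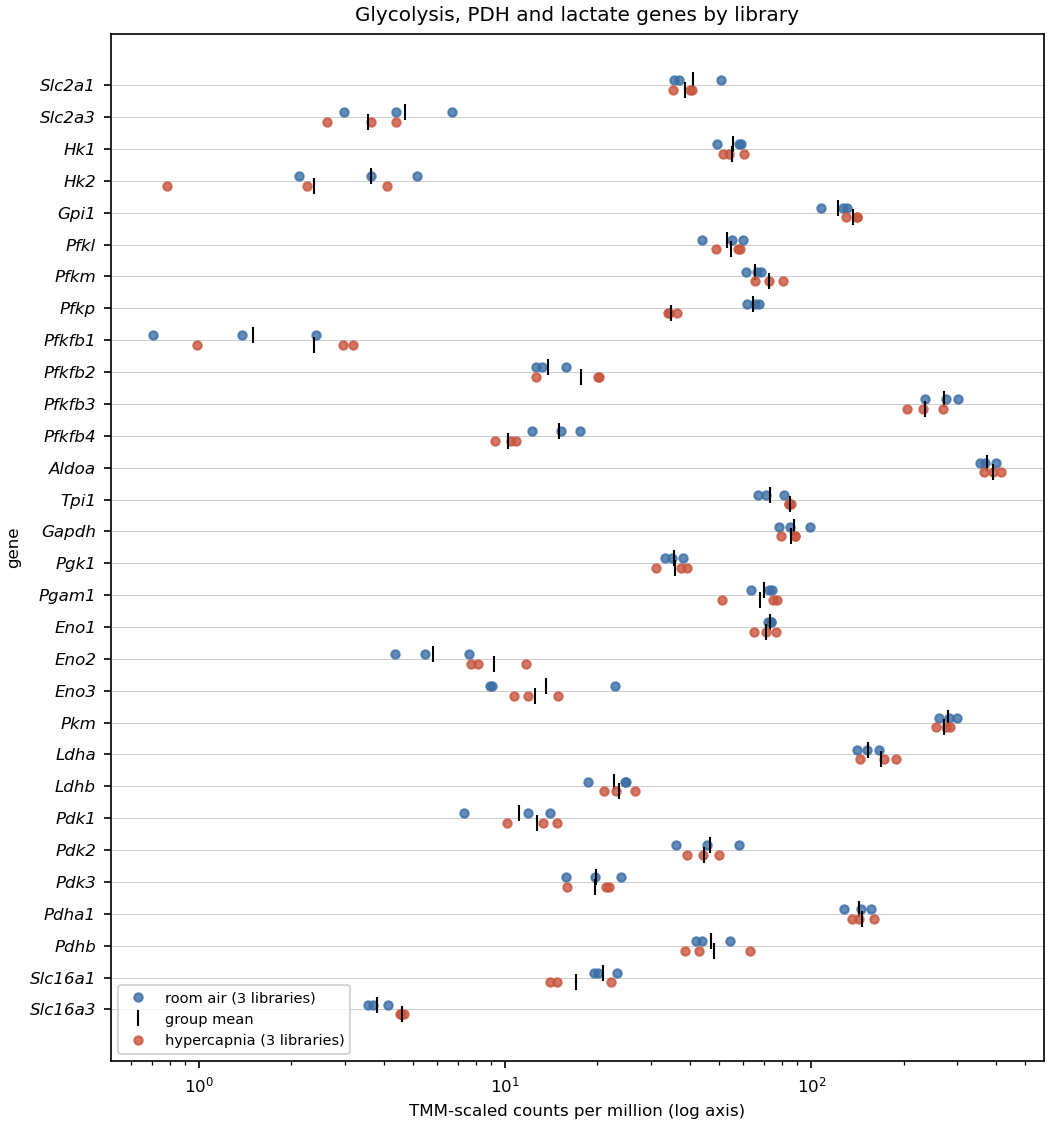
Level of the 30 tested genes in each library, in TMM-scaled CPM on a log axis, with 3 room air and 3 hypercapnia libraries as points and the group means as black ticks. The groups stand wide apart at Pfkp, with means of 64.7 and 34.8, and lie close together for most other genes; levels of different genes are not scaled by length here.

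Groups did not overlap in 5 of the 30 members (3 higher in hypercapnia, 2 lower), a share of 16.7% against 18% of all genes tested (9.28% higher and 8.74% lower). At an unadjusted p under 0.05 there were 2 members, or 6.67%, against 12% of all genes tested. Summed over the 32 members, the level was 2243, 2298 and 2041 CPM in M1, M2 and M3 against 2277, 2051 and 2213 CPM in M4, M5 and M6. The means were 2194 ± 135 and 2180 ± 117 CPM (SD, n = 3), so the summed level differed by far less than its spread between libraries. For 23 of the 30 genes the 95% interval of the log2 fold change lay within 1 on either side of 0, and for 18 it lay within 0.5. The remaining 7 (Pfkp, Pfkfb1, Pfkfb4, Hk2, Slc2a3, Eno2 and Slc16a3) had an interval that reached beyond 1 on the log2 scale.

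**Figure D2:**
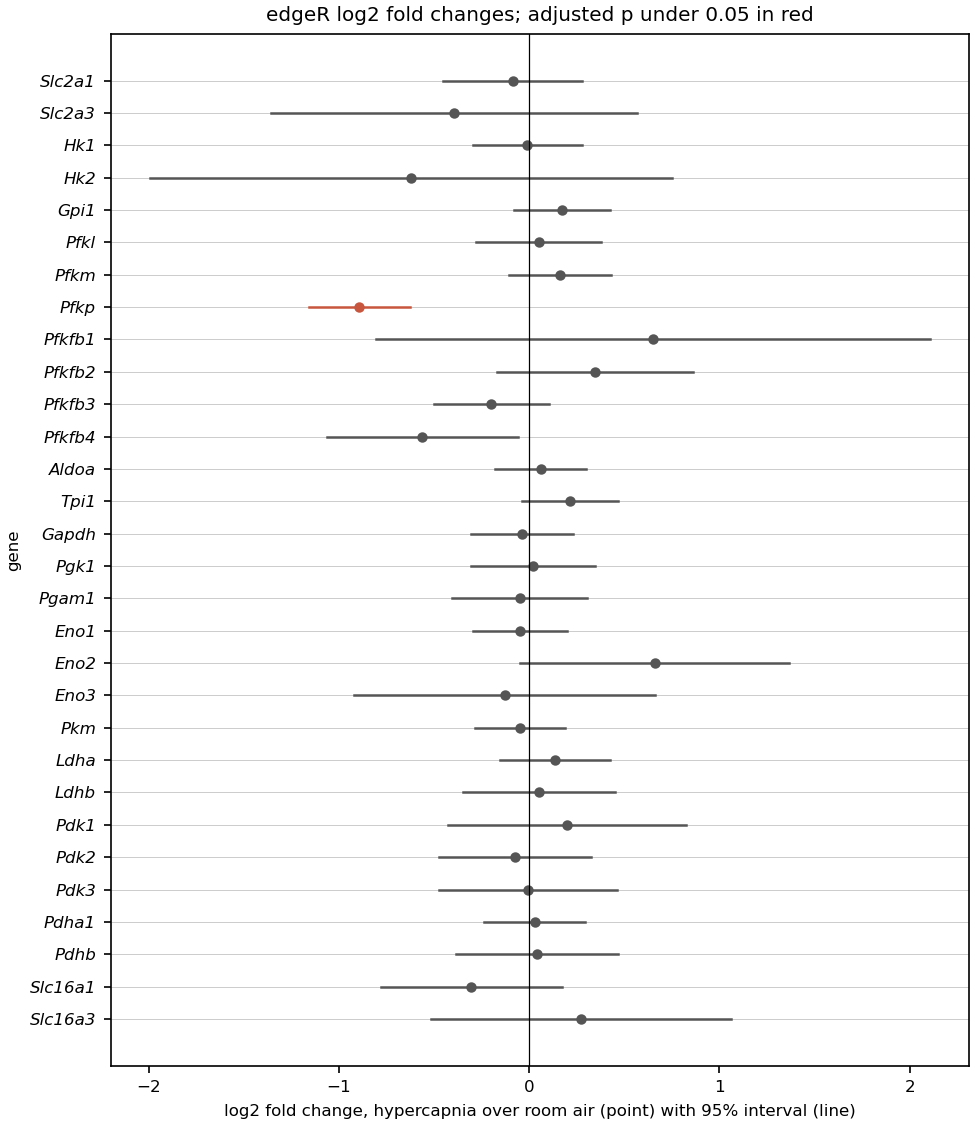
Log2 fold change of hypercapnia over room air by edgeR (points) with its 95% interval (lines) for the 30 tested genes. Pfkp at -0.89 is marked in red as the single gene with an adjusted p under 0.05, and the widest intervals belong to the low-count genes Pfkfb1 and Hk2.

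Phosphofructokinase commits glucose to glycolysis and works as a tetramer of liver-type (Pfkl), muscle-type (Pfkm) and platelet-type (Pfkp) subunits in any mixture. Pfkp stood at 61.5, 67.2 and 65.2 CPM in M1, M2 and M3 against 33.9, 36.4 and 34.2 CPM in M4, M5 and M6. Every hypercapnia library was far below every room air library, and the libraries of a group lay close together. The means were 64.7 ± 2.93 and 34.8 ± 1.33 CPM (SD, n = 3). The log2 fold change was -0.89 ± 0.12 (SE), with a 95% interval of -1.16 to -0.63 and an edgeR adjusted p of 0.00784, so that the level was 1.86-fold higher in room air. By p-value Pfkp ranked 26 of 13005.

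Pfkp, ENSMUSG00000021196, lies on the minus strand of chromosome 13 from 6579768 to 6648777 (GRCm38). Of its exonic bases, 5.58% are shared with exons of Pitrm1 on the other strand, a gene whose log2 fold change was -0.01 ± 0.13. No near-identical stretch of its longest coding transcript was found in another gene. Over the 14 alternative settings and left-out libraries, the log2 fold change of Pfkp ran from -0.93 to -0.83 and 13 still called it. The exception was the fit without M2, at -0.86 ± 0.14 with an adjusted p of 0.0602 (range over the alternatives 3.61e-06 to 0.0602). The fit with mean endothelial marker expression as a covariate gave -0.87 ± 0.16 (adjusted p = 0.0178). Summed endothelial markers went largely with group, from 863 to 3184 CPM in room air and from 3127 to 5118 CPM in hypercapnia. With 6 libraries, their part in the change of Pfkp cannot be told apart from that of hypercapnia.

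**Figure D3:**
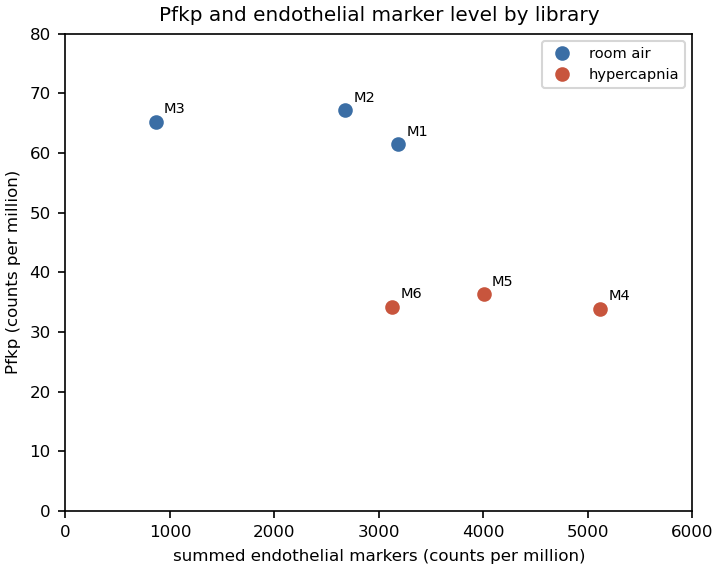
Level of Pfkp in CPM against the summed level of 18 endothelial markers in each of the 6 libraries. The 3 room air libraries lie between 61.5 and 67.2 and the 3 hypercapnia libraries between 33.9 and 36.4. On the horizontal axis the groups are nearly apart as well, so the marker level and the group cannot be separated here.

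The other subunits did not pass the test. Pfkl stood at 59.9, 55.2 and 43.8 CPM in room air against 58.2, 48.6 and 57.5 CPM in hypercapnia, and the groups overlapped (0.05 ± 0.15, adjusted p = 0.942 by edgeR). Pfkm stood at 68.2, 61.2 and 66.2 CPM in room air against 72.7, 80.8 and 65.4 CPM in hypercapnia, again with overlap (0.16 ± 0.12, adjusted p = 0.683). In Pfkm 10.7% of exonic bases are shared with other gene models. The 3 subunits together summed to 190, 184 and 175 CPM in M1, M2 and M3 against 165, 166 and 157 CPM in M4, M5 and M6. The sum was lower in each hypercapnia library than in any room air library, 183 ± 7.23 against 163 ± 4.71 CPM (SD, n = 3). CPM are not scaled for gene length, and this order did not hold per kilobase of merged exons, where the sum was 34.0, 31.6 and 31.2 CPM per kilobase in M1, M2 and M3 against 33.0, 34.2 and 30.8 in M4, M5 and M6, with overlap. Per kilobase of the longest protein-coding transcript the means were 52.4 ± 2.07 and 48.4 ± 1.81 (SD, n = 3), without overlap. So the direction of the summed level depended on the length used.

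Within a library, the share of each subunit in the family does not depend on how libraries are scaled. Per kilobase of exon, Pfkp made up 13.5%, 15.9% and 15.6% of the phosphofructokinase counts in M1, M2 and M3 against 7.66%, 7.94% and 8.31% in M4, M5 and M6, with no overlap. The difference was -7.02 percentage points, with an exact two-sided permutation p of 0.1, the smallest that 3 against 3 libraries can give, and 0.5 after Benjamini-Hochberg adjustment over the 20 isoform shares tested. It was -14 points from raw counts without length and -12.45 points with the length of the longest coding transcript. As a share, Pfkm stood at 60.1%, 58.0% and 63.4% in room air and 65.9%, 70.7% and 63.7% in hypercapnia, groups that did not overlap (exact permutation p = 0.1, adjusted p = 0.5). Shares of a family are not independent, and a lower share of Pfkp raises those of the other subunits together. The share of Pfkm is therefore not a separate result. Pfkl held 24.5 ± 3.07% and 25.3 ± 3.5% (SD, n = 3).

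**Figure D4:**
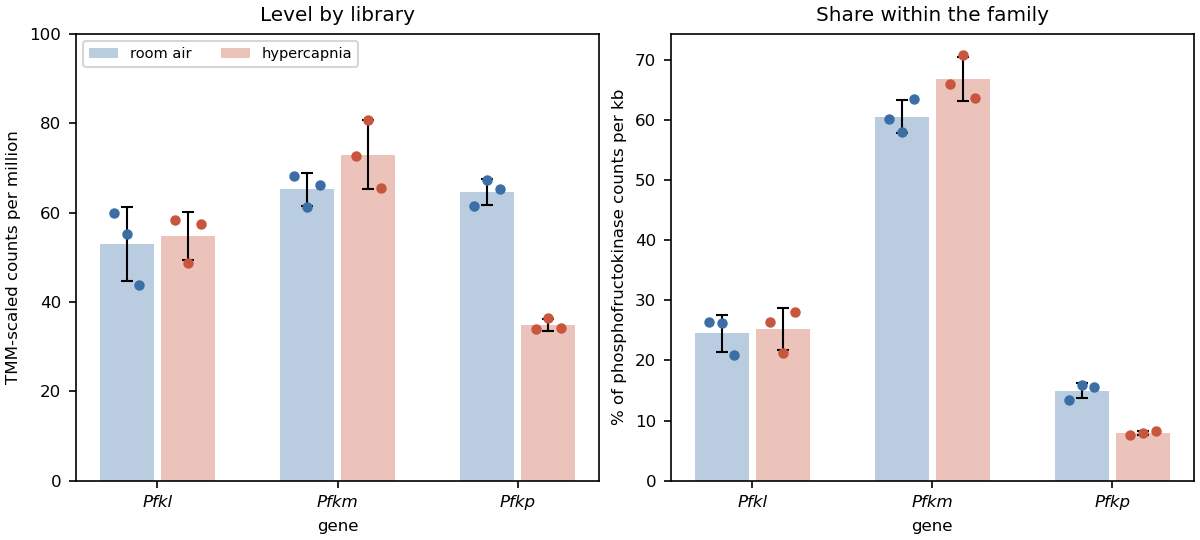
Levels in TMM-scaled CPM (left) and shares of the family's counts per kilobase of exon (right) for the 3 phosphofructokinase genes, with bars for group means, error bars for the SD and points for the 3 libraries of each group. The bars of Pfkp drop from 64.7 to 34.8 CPM and from 15% to 7.97% of the family.

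The upstream sequences of Pfkp and of its paralog Pfkl are shown because Pfkp passed the test and Pfkl did not; the change of one against the other was tested only through the shares above. Each line gives the 250 bases before the RefSeq transcription start (GRCm38.p6), read on the gene's minus strand: chr13:6648772-6649021 for Pfkp and chr10:78009808-78010057 for Pfkl. Capitals mark GCGTG, or CACGC on the other strand, a form of the core recognised by hypoxia-inducible factors.
Pfkp: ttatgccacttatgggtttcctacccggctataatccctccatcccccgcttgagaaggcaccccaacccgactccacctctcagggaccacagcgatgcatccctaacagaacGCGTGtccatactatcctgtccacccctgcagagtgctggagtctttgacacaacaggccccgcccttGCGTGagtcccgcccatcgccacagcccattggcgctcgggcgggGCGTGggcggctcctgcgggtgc
Pfkl: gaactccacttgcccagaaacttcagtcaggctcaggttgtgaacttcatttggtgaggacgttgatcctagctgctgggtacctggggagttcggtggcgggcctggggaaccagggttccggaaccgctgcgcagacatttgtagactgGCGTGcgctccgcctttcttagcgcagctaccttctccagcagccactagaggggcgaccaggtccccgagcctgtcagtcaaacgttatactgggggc

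The Pfkp window held GCGTG at 3 places and the Pfkl window at 1. The share of all windows with 3 or more places was not counted, so this contrast has no background beside it. Among 32851 promoter windows of this length, 28.2% held at least 1 such match on either strand, and so did 26 (53.1%) of the 49 windows that RefSeq gives for 30 of the members. ACGTG, the other form of this core, was in neither window and in 16.6% of all windows, and CACGTG, the E-box of clock and MYC factors and itself counted as an ACGTG, was in neither window and in 6% of all. GGGCGG was at 4 places in the Pfkp window and at 0 in the Pfkl window, and in 32.7% of all windows. TATAAA was in neither window and in 12.4% of all. The GC content was 62.8% for Pfkp and 59.2% for Pfkl, above the median of 52.4% over all windows. These are matches of letters in a short window and say nothing on binding. Pfkm has 4 starts in the table and is not printed.

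Glucose enters by facilitative transporters. Slc2a1, which encodes the widely expressed GLUT1, stood at 35.7, 50.7 and 37.0 CPM in room air against 40.3, 35.2 and 40.8 CPM in hypercapnia. Only M2 stood apart, on the high side, and the groups overlapped. Its log2 fold change of -0.09 ± 0.17 did not pass (edgeR adjusted p = 0.909) and was positive without M2. Slc2a3, the high-affinity GLUT3 of neurons and leukocytes, was low, at 4.7 ± 1.89 and 3.55 ± 0.894 CPM (SD, n = 3). The insulin-responsive transporter gene Slc2a4 had 0, 5 and 6 counts in room air against 5, 1 and 3 in hypercapnia, at or near the limit of 3 counts. Per kilobase of exon, Slc2a1 made up 93.8 ± 1.85% and 95.01 ± 0.607% of the counts of these 3 genes.

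Hexokinase traps glucose in the cell as glucose-6-phosphate. Hk1, the housekeeping isoform, stood at 59.0, 58.2 and 49.2 CPM in room air against 60.4, 53.6 and 51.4 CPM in hypercapnia, 2 sets that overlapped almost fully (log2 fold change -0.01 ± 0.13, 95% interval -0.29 to 0.28). Hk2, the inducible isoform of muscle and tumour cells, was low and scattered, from 0.786 CPM in M5 to 5.14 CPM in M2, and did not pass (-0.62 ± 0.62, edgeR adjusted p = 0.781). Its 95% interval was -1.99 to 0.75, and its libraries varied with a coefficient of variation of 41.6% in room air and 69.8% in hypercapnia. Hk1 held 91.6 ± 2.71% and 94.4 ± 3.4% of hexokinase counts per kilobase.

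The PFKFB enzymes set the level of fructose-2,6-bisphosphate, the strongest activator of phosphofructokinase. Pfkfb3, the isoform with the highest kinase over phosphatase activity, was by far the most abundant of them and held 86.8 ± 2.87% and 86.0 ± 1.71% of the family's counts per kilobase. It stood at 300.4, 275 and 235 CPM in room air against 269.8, 205 and 232 CPM in hypercapnia, with overlap (-0.20 ± 0.14, edgeR adjusted p = 0.648). With the endothelial covariate the value was -0.40 ± 0.14 (adjusted p = 0.192), and without M5 it was -0.11 ± 0.15. Pfkfb4 stood at 12.3, 15.2 and 17.6 CPM in room air against 10.5, 9.24 and 10.9 CPM in hypercapnia. Each hypercapnia library was below each room air library, but the gene did not pass over all genes (-0.56 ± 0.23, unadjusted p = 0.0316, adjusted p = 0.338 by edgeR). With the endothelial covariate its log2 fold change was -0.32 ± 0.29.

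Pfkfb2, the isoform of heart and kidney, stood at 12.6, 15.7 and 13.1 CPM in room air against 20.2, 12.6 and 20.0 CPM in hypercapnia, where M4 and M6 were high and M5 was not (0.35 ± 0.23, adjusted p = 0.631 by edgeR). Its share of the family was 4.66 ± 0.637% in room air and 6.64 ± 0.996% in hypercapnia (SD, n = 3), with no overlap and an exact permutation p of 0.1. Of its exonic bases 19.5% are shared with other gene models. Pfkfb1, the liver and muscle isoform, was close to the limit of detection, between 0.707 CPM in M1 and 3.18 CPM in M6.

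The next enzymes split and interconvert the sugar phosphates. Gpi1, glucose-6-phosphate isomerase, stood at 127, 131 and 108 CPM in room air against 141, 141 and 129.7 CPM in hypercapnia (0.17 ± 0.12, edgeR adjusted p = 0.624). Aldoa, the main aldolase of most tissues, stood at 369.6, 402 and 355 CPM in room air against 392, 366 and 417 CPM in hypercapnia. These values overlapped, and the 95% interval of its log2 fold change was narrow, -0.18 to 0.30. Aldoc, the brain isoform, had no counts in room air against 1, 0 and 6 in hypercapnia, so aldolase C was at most near the limit of 3 counts.

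Tpi1, triosephosphate isomerase, stood at 81.1, 71.3 and 66.8 CPM in room air against 84.2, 84.2 and 86.1 CPM in hypercapnia. All hypercapnia libraries were above all room air libraries, though M1 came close. The log2 fold change, 0.21 ± 0.11, did not pass (edgeR adjusted p = 0.501), and with the endothelial covariate it was 0.11 ± 0.14.

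In the lower part of the pathway, where ATP and NADH are made, the abundant enzymes lay close together between groups. Gapdh, glyceraldehyde-3-phosphate dehydrogenase and a common reference gene for normalisation, stood at 85.3, 99.1 and 78.4 CPM in room air against 88.5, 88.5 and 79.4 CPM in hypercapnia (-0.04 ± 0.12, positive without composition factors). Pgk1, phosphoglycerate kinase, stood at 35.5 ± 2.44 and 35.9 ± 4.23 CPM (SD, n = 3) and Pgam1, phosphoglycerate mutase, at 70.2 ± 5.77 and 67.8 ± 14.5 CPM, with M5 low at 51.1 CPM. Pkm, pyruvate kinase, stood at 282, 298 and 261 CPM against 283, 275 and 255 CPM, and its 95% interval was -0.29 to 0.19.

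Enolase converts phosphoglycerate to phosphoenolpyruvate. Eno1, the widely expressed isoform, stood at 73.4 ± 0.975 and 71.0 ± 5.98 CPM (SD, n = 3). Eno2, the isoform of neurons and neuroendocrine cells, stood at 4.36, 5.46 and 7.63 CPM in room air against 7.74, 8.15 and 11.7 CPM in hypercapnia. The groups did not overlap but nearly touched at M3 and M4, and the gene did not pass (0.66 ± 0.32, adjusted p = 0.455 by edgeR, and 1.17 ± 0.39 with an adjusted p of 0.166 with the endothelial covariate). Eno3, the muscle isoform, stood at 9.07, 8.92 and 22.9 CPM in room air against 10.7, 14.8 and 11.9 CPM in hypercapnia. M3 was far above the other libraries, and the muscle markers in M3 summed to 2.54 CPM. The cause of the high value in M3 was not tested. The log2 fold change of Eno3 was -0.13 ± 0.36 (edgeR adjusted p = 0.938), and its sign rested on M3. It was 0.47 ± 0.27 without M3 and 0.78 ± 0.33 with the endothelial covariate (adjusted p = 0.259).

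For several members the count depends on reads that more than 1 place in the genome can claim. A stretch of at least 50 bases at 98% identity or more in another gene covered 88% of the longest coding transcript of Gapdh (in 42 other genes), 85.6% of Eno1, 76.8% of Ldhb, 68.8% of Pgk1 and 65.5% of Pkm. It covered 43.1% of Pgam1 and 36.3% of Gpi1, and under 4% or none in the other members. Of the 42 Gapdh copies, 38 are in the count table and had 67 counts in all 6 libraries together, beside 4937 for Gapdh. How such reads were counted is not given in the sources used here and the levels of these genes are uncertain. Pkm and Pdha1 also share 15.3% and 16.1% of their exonic bases with other gene models, and Gpi1 11.5%.

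Lactate dehydrogenase interconverts pyruvate and lactate, with the A subunit favouring lactate. Ldha stood at 152, 167 and 141 CPM in room air against 172, 144 and 189 CPM in hypercapnia. M4 and M6 were the highest and M5 lay among the room air libraries (0.14 ± 0.13, adjusted p = 0.77 by edgeR). Ldhb, the subunit of oxidative tissues, stood at 22.7 ± 3.54 and 23.5 ± 2.78 CPM (SD, n = 3). The Ldha share of both, per kilobase, was 76.2 ± 4.23% and 77.1 ± 4.34%, a difference smaller than the spread in either group. The height of this share is uncertain, because near-identical stretches cover 76.8% of the Ldhb transcript and 0% of the Ldha transcript.

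Monocarboxylate transporters carry lactate together with a proton across the plasma membrane. Slc16a1 (MCT1), the broadly expressed one, stood at 19.4, 20.1 and 23.1 CPM in room air against 22.2, 13.9 and 14.8 CPM in hypercapnia, where M5 and M6 were low and M4 was not (-0.30 ± 0.22, edgeR adjusted p = 0.66). Slc16a3 (MCT4), the exporter of glycolytic cells, was low, at 4.12, 3.57 and 3.71 CPM in room air against 4.55, 4.52 and 4.68 CPM in hypercapnia. All hypercapnia libraries were higher, by 0.27 ± 0.36 on the log2 scale (edgeR adjusted p = 0.848), at 34 to 50 counts per library. Bsg, basigin, the chaperone of both transporters and a gene of the wider list, stood at 324 ± 16.9 and 309 ± 35.5 CPM.

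Pyruvate dehydrogenase takes pyruvate into the citrate cycle. Pdha1, the E1 alpha subunit that the kinases phosphorylate, stood at 145, 157 and 128 CPM in room air against 160.2, 135 and 143 CPM in hypercapnia, and its 95% interval was -0.24 to 0.30. Pdhb, the E1 beta subunit, stood at 46.9 ± 6.63 and 48.1 ± 13.0 CPM (SD, n = 3), with M6 the highest at 63.0 CPM. Among Pdk1, Pdk2 and Pdk3, kinases that shut the complex, Pdk2 was the most abundant per kilobase, with 61.3 ± 9.5% and 60.1 ± 6.76% of their counts. Pdk4, a kinase of the wider list, is left out of these shares. It stood at 14.5 ± 2.16 CPM per kilobase in room air and 8.66 ± 2.91 in hypercapnia, beside 14.8 ± 3.49 and 14.0 ± 1.73 for Pdk2. Pdk1, a known target of hypoxia-inducible factors, stood at 11.9, 7.34 and 14.0 CPM in room air against 14.8, 10.1 and 13.3 CPM in hypercapnia, with overlap (0.20 ± 0.28, adjusted p = 0.859). Pdk2 (-0.07 ± 0.18) and Pdk3 (-0.01 ± 0.21) did not pass the edgeR test either.

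Compared per kilobase of exon, which allows genes to be set side by side, Aldoa had the highest level in room air with 129 ± 8.26 CPM per kilobase (SD, n = 3). Pkm followed with 56.0 ± 3.73 and Ldha with 46.4 ± 3.92. Pdha1 (38.4 ± 3.87), Pfkfb3 (35.7 ± 4.34) and Pgam1 (35.4 ± 2.91) came next and did not differ beyond their spread. Places below the leading 3 depend on the length used. Merged exons of Gapdh cover 4133 bases against 1420 in its longest coding transcript, and those of Pdha1 3734 against 2848. The lengths behind these levels are of all annotated exons merged, and the levels of Pkm and Pgam1 carry the uncertainty of near-identical copies. In room air that holds also for Gapdh (21.2 ± 2.56), Gpi1 (18.9 ± 1.93), Pgk1 (15.8 ± 1.09), Ldhb (14.4 ± 2.26) and Eno1 (13.65 ± 0.181). Their places in this order are therefore uncertain. In hypercapnia the order of the leading 3 was the same, with Aldoa at 135 ± 8.79, Pkm at 54.2 ± 2.86 and Ldha at 50.9 ± 6.95 CPM per kilobase. Phosphofructokinase subunits lay lower, with Pfkm at 19.5 ± 1.09, Pfkl at 7.93 ± 1.25 and Pfkp at 4.82 ± 0.218 in room air. The order of Pfkl and Pfkp depends on the length used as well. Merged exons of Pfkp cover 13401 bases, against 4145 in its longest coding transcript, and those of Pfkl 6675 against 3730. Without length, Pfkp stood above Pfkl in room air, at 64.7 and 53.0 CPM.

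Beyond the members, 49 further genes of glucose, pyruvate and lactate handling were listed, of which 32 passed the filter and 0 were called by edgeR (6 at an unadjusted p under 0.05, or 18.8%, against 12% of all genes tested). DESeq2 called 2 of them, Txnip and Pdk4, and limma-voom called Txnip, all lower in hypercapnia. Txnip, an arrestin-like protein that restrains glucose uptake and follows glucose supply, had the smallest p. It stood at 1317, 1154 and 1256 CPM in room air against 785, 966 and 887 CPM in hypercapnia, without overlap (-0.50 ± 0.11, edgeR adjusted p = 0.0682, and 0.000901 by DESeq2). In Txnip 19.4% of exonic bases are shared with a gene model on the other strand.

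Slc2a10, which encodes GLUT10, a transporter of the secretory pathway linked to arterial tortuosity, stood at 39.3, 39.9 and 36.3 CPM in room air against 29.9, 21.8 and 22.9 CPM in hypercapnia (-0.63 ± 0.16, edgeR adjusted p = 0.107). Pdk4, the PDH kinase induced by fasting and glucocorticoids, stood at 59.6, 45.4 and 47.8 CPM in room air against 41.2, 29.2 and 20.9 CPM in hypercapnia. Its log2 fold change was -0.75 ± 0.23 (adjusted p = 0.174 by edgeR, 0.0479 by DESeq2), and without M4 it was -1.02 ± 0.20 with an adjusted p of 0.0446. Bpgm, bisphosphoglycerate mutase, stood at 12.4, 10.2 and 8.26 CPM in room air against 14.6, 16.6 and 20.96 CPM in hypercapnia (0.76 ± 0.24, edgeR adjusted p = 0.187). The groups of all 4 genes, picked by the smallest p, were apart, and none passed the edgeR test over all genes. In the whole list 11 of the 32 tested genes had no overlap (8 higher and 3 lower in hypercapnia). That is 34.4%, against 18% of all genes tested. The median log2 fold change of the 32 tested genes was 0.10, against 0.01 over all genes tested, with 18 positive and 14 negative.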

How the data were processed

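The submitters deposited unnormalised read counts per Ensembl gene. Tools named by the submitters' processing notes are TopHat2 2.1.0, HTSeq, FastQC and bcl2fastq 2.17.1.14, with the mm10 build; for the annotation, the strand setting and the treatment of multiply mapped reads, nothing is given in the sources used here. The deposited columns name the group but carry numbers other than the sample titles, so each was assigned to its group only.

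Symbols, positions and merged exon lengths came from GENCODE M21 (GRCm38) and promoter windows from RefSeq. The whole table was fitted with edgeR 4.0.16 (R 4.3.3): TMM factors, default filter by group (minimum count 10), quasi-likelihood F-test, group as the only term, 4 residual degrees of freedom, Benjamini-Hochberg adjustment over all tested genes, two-sided, threshold 0.05. The SE is the size of the log2 fold change divided by the square root of F. Intervals use the test's degrees of freedom. Isoform shares were compared with an exact permutation test (scipy 1.17.1) and near-identical stretches were found with blastn 2.17.0. No library repeated another: the chi-square per degree of freedom between libraries was at least 12.56 (M5 and M6). It was 12.58 for M1 and M4, which are of different groups, so likeness of libraries did not follow group alone.

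All 32 members are accounted for, with fuller values for those past the threshold, with the smallest p or the highest level of their step. Of the 49 further genes, those past the threshold and the 4 with the smallest p were to be named; Bsg was added after its values were seen. Members, lists and alternatives were chosen with earlier results of these data known.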

Additional observations from a re-analysis of the deposited data

How the results depend on the processing

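The count of changed genes was 159. It was 756 without a filter on low counts, 426 by DESeq2 and 255 with robust dispersion, and between 24 (without M2) and 148 (without M4) with 1 library left out; it was 27 without M5 and 42 without M6. For the members the count was 1 under every planned fit other than that without M2, where it was 0 (range with a library left out 0 to 1). For the further genes it was 0, against 3 without a filter (Txnip, Pdk4 and Slc2a10), 2 by DESeq2, 1 by limma-voom, 1 with robust dispersion (Txnip in both), 1 with the endothelial covariate (Gpd2, -0.93 ± 0.20, adjusted p = 0.0378) and between 0 and 1 with a library left out (Pdk4, without M4). The number of isoform shares without overlap was 4 of 20, and between 4 and 7 with a library left out. By level, 18% of all genes tested had no overlap, so no excess can be read from this count. Shares of a family depend on each other, as for Pfkm and Pfkp, and smaller groups part more easily. Of 416 recomputed log2 fold changes of members, 415 stayed on the same side of the threshold; in 6 members the sign differed without composition factors (Hk1, Gapdh, Pgam1, Eno1, Pkm and Pdk3, none called). With a library left out it differed in 2 to 8 members, none called: 8 without M2 (Slc2a1, Hk1, Gapdh, Pgk1, Ldhb, Pdk1, Pdk2 and Pdhb), 5 without M5 (Hk1, Pgam1, Eno1, Ldhb and Pdk3) and 5 without M6 (Hk1, Gapdh, Pgk1, Pdk2 and Pdhb). The cause of these differences was not tested, other than that fits without a library have fewer samples. The transcript length for isoform shares was chosen after seeing the data. No paired analysis was possible because the columns carry no numbers shared between groups. Slc2a4 and Aldoc had too few counts to be tested.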
